A study of Mus musculus with 12 samples.

Results

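Msantd3, Trim8 and Gm10324 are 3 of the 20409 genes in the deposited tables of the ORFtag screens in mouse embryonic stem (mES) cells. ORFtag uses a retroviral cassette that carries a promoter and a resistance gene ahead of a tag with a splice donor, so that an insertion can join the tag to the next exon downstream and make the cell express a fusion protein. The 3 genes were chosen by their symbols because the study singled them out as repressors, a choice made on measured values of the repressor screen. The study also cloned Msantd3 and Trim8 singly and reported that recruiting each repressed the reporter. Gm10324 is named there among hits linked to human oncogenic fusions, and the study's text describes no such assay for it. Their repressor values are therefore given below as a description with no test, and tests are given for the activator and post-transcriptional gene regulator (PTGR) screens only.

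All 12 libraries came from diploid AN3-12 mES cells, derived from a haploid line, with wild-type genes apart from the transgenes named here. Each screen used 1 clonal reporter line, transduced with a mix of cassettes for the 3 reading frames and selected with G418 for the resistance gene, which a PGK promoter drives. In the repressor screen the tag was TetR with a nuclear localization signal and the reporter was pEF1-BFP-7xTetO-pPGK-Puro-IRES-GFP at an expression-stable locus, from which cells with reduced GFP were sorted. In the activator screen the same tag was used with a 7xTetO-pMYLPF-Puro-IRES-GFP reporter at that locus, and GFP-positive cells were sorted. In the PTGR screen the tag was λN and the reporter was Puro-IRES-GFP-10xBoxB, randomly integrated. The PTGR line also carried a retroviral CreERT2 with hygromycin resistance. Repeated sorts for low GFP were followed there by 4-hydroxytamoxifen, which lets Cre remove the boxB sites, and a sort for high GFP. Each screen had 2 sorted and 2 unsorted libraries, and the 6 unsorted libraries served together as background.

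MSANTD3 carries a Myb/SANT-like domain, a fold related to DNA-binding modules, and little is known of its function. TRIM8 is a RING-type E3 ubiquitin ligase of the tripartite motif family that has been linked to SOCS1, PIAS3, p53 and TAK1 signalling. Gm10324 is a predicted gene in a cluster of KRAB zinc finger genes. KRAB zinc finger proteins bind DNA through their zinc fingers and recruit TRIM28, which assembles SETDB1 and HP1 proteins into a silencing complex. In these genes short exons encode the KRAB domain and a long last exon encodes the zinc fingers.

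An ORFtag fusion begins at a splice acceptor, so the acceptors to which the members' insertions were assigned are shown first, followed by the acceptors of Gm46425 and Gm17353, a pair of genes that RefSeq places upstream of Gm10324. Each line is the plus strand of mm10 (from RefSeq's GRCm38.p6), 5′ to 3′, with the last 20 bases of the intron and the first 10 of exon 2, and the capitals mark the acceptor AG. The stretches are chr4:48552360-48552389, chr19:46512703-46512732, chr13:66119617-66119646, chr13:65956011-65956040 and chr13:65904414-65904443.
Msantd3: ctttcaacttccttttgcAGgctagccaac
Trim8: tattccaactgtccctacAGaagatgctca
Gm10324: acatttctgggatattttAGgatgcagtga
Gm46425: acatttctgggatattttAGgatgcagtga
Gm17353: atgtttctgggatattttAGgatgcagtga
The Gm10324 and Gm46425 acceptors have the same letters over all 30 bases. Their second exons, each of 127 bases, have 125 identical bases (98.4%), and exon 2 of Gm17353 also shares 125 of 127 with that of Gm10324.

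Insertions were counted as distinct positions at most 200 kb from the assigned exon. Sorted libraries held 14705 to 60980 such insertions and unsorted libraries 54088 to 233799, 1022126 in all 6. Counts are given below as they were and per 10000 insertions of the library, with 95% Wilson intervals or a limit of 3 counts for a count of 0. Both cover counting error only, since dividing cells and PCR copies are not independent. Per the study's methods the 2 libraries of a kind are biological replicates. The repressor sorted pair had 4186 positions in common (12.6% of its distinct positions), a larger share than the activator pair (1.21%) or the PTGR pair (0.331%). Whether these are cells common to both replicates was not tested.

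Msantd3 (ENSMUSG00000039693, mm10 chr4:48539935-48561919, plus strand) had the most sorted insertions of the 3 genes in the repressor screen, 58 in sorted replicate 1 and 14 in sorted replicate 2. The repressor unsorted libraries had 50 and 43, the activator unsorted libraries 24 and 39, and the PTGR unsorted libraries 63 and 12. Per 10000 insertions the sorted values were 26.0 (95% interval 20.2 to 33.7) and 9.21 (5.49 to 15.5), both above all 6 unsorted libraries, which ran from 1.37 to 2.87. The 2 sorted values also differed from each other by more than their intervals, with a mean of 17.6 ± 11.9 (SD, n = 2) against 2.24 ± 0.553 (SD, n = 6) in the unsorted libraries. The log2 odds ratio of the summed counts, 72 sorted against 231 in the background, was 3.09 ± 0.19 (SE from counting).

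Msantd3 in the activator screen had 4 and 1 sorted insertions, or 2.299 and 0.680 per 10000. In the PTGR screen it had 5 and 15, or 0.820 and 2.56 per 10000. In both screens the sorted values lay on both sides of the unsorted mean of 2.24. The 95% intervals in the activator screen were 0.894 to 5.91 and 0.120 to 3.85, and both included that mean. In the PTGR screen they were 0.350 to 1.92 and 1.55 to 4.23, and only the second included it. The log2 odds ratio was -0.54 (95% interval -1.82 to 0.74) in the activator screen and -0.43 (-1.09 to 0.23) in the PTGR screen. The adjusted p was 1.00 in both (one-sided Fisher's exact test over all tested genes, Benjamini-Hochberg). Without PTGR sorted replicate 1 the PTGR value was 0.18, and without activator sorted replicate 2 the activator value was 0.025, neither a call. In these 2 screens 0.666% and 4.64% of all tested genes were called, PTGR and activator in that order, and 8.18% were called in the repressor screen, where the members' own calls follow from their choice.

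**Figure D1:**
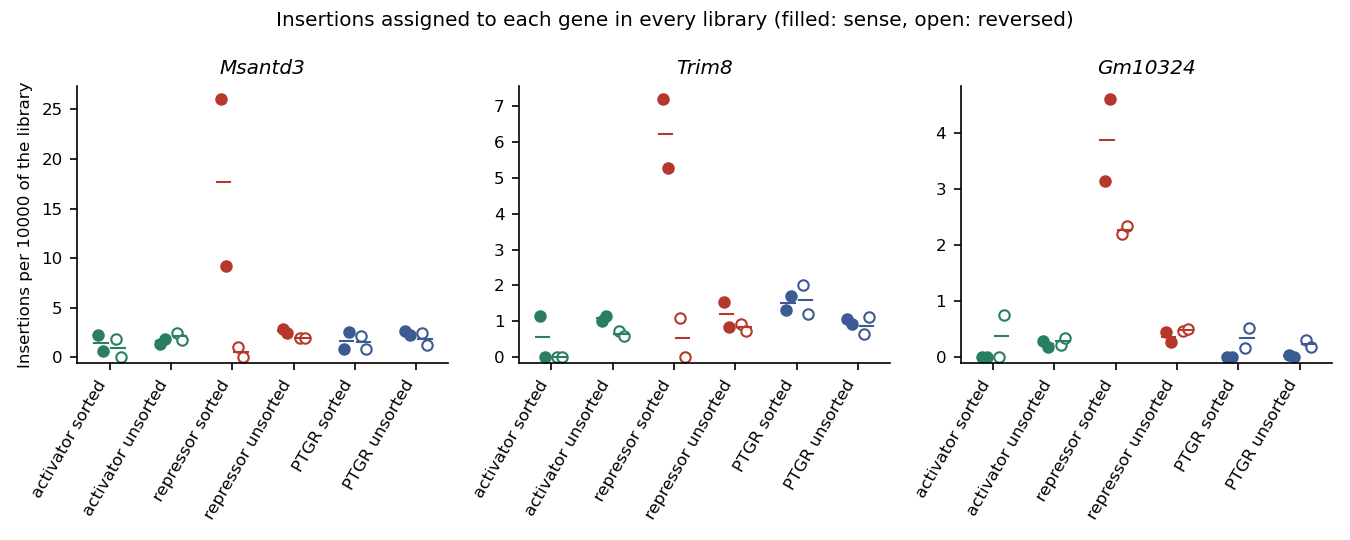
Insertions per 10000 insertions of the library (y axis, linear) for Msantd3, Trim8 and Gm10324 in every library, with sense assignments filled, reversed assignments open and a bar at the mean of 2 replicates. The sense points of the repressor sorted libraries, 26.0 and 9.21 for Msantd3, lie above all other points of each gene, and Gm10324 alone also has raised reversed points there.

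All 72 Msantd3 insertions of the repressor sorted libraries lay within 50 kb of the assigned exon, the farthest at 19.8 kb. In the background 147 of 231 (63.6%) did, and the other 84 lay between 50 and 200 kb, upstream of the gene. Of the sorted insertions, 58 (80.6%) lay between the annotated start of the gene and exon 2, against 85 (36.8%) of the background, and 12 lay in the 20 kb before the gene. By replicate, 47 of 58 and 11 of 14 lay between the start and exon 2. A single stretch of 9567 bases held 67 of the 72, at chr4:48538302-48547868. The background had 99 insertions in or within 2 kb of it. The median distance to the exon was 10.1 kb in the repressor sorted libraries, 19.9 kb in the background and 60.3 kb in the PTGR sorted libraries, where 11 of 20 insertions lay beyond 50 kb. Counting only insertions up to 50 kb gave a repressor log2 odds ratio of 3.46.

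Exon 2 was the assigned exon of 70 of the 72 insertions, and exon 3 of the other 2. Exon 2 (chr4:48552380-48552830) begins 33 bases before the first coding base of the gene, so all 825 annotated coding bases of the transcript lie downstream of the acceptor that the 70 insertions face. The background had a like split, with 218 insertions assigned to exon 2 and 13 to exon 3.

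Nearly all Msantd3 insertions of the repressor sorted libraries were in the sense orientation. When the strand of each insertion is reversed before assignment, the cassette points away from the gene, and such reversed insertions numbered 2 and 0 in the repressor sorted libraries. Sense insertions thus made up 72 of 74 (97.3%), against 231 of 443 (52.1%) in the background, 20 of 38 (52.6%) in the PTGR sorted libraries and 5 of 8 in the activator sorted libraries. Over all genes the share of sense insertions was 54.7% in the repressor sorted libraries and 50.2% in the background. Of the 69 distinct sorted sense positions at Msantd3, 3 were found in both sorted replicates, 12 also in a repressor unsorted library and 4 in an unsorted library of another screen. Counting shared positions once gave a log2 odds ratio of 3.20.

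Trim8 (ENSMUSG00000025034, chr19:46501702-46516848, plus strand) had 16 and 8 sorted insertions in the repressor screen. The unsorted libraries had 27 and 15 in the repressor screen, 18 and 24 in the activator screen, and 25 and 5 in the PTGR screen. Per 10000 the sorted values were 7.19 (95% interval 4.42 to 11.7) and 5.26 (2.67 to 10.4), and both exceeded the unsorted libraries, which ran from 0.848 to 1.55. These replicates lay within each other's intervals, with a mean of 6.22 ± 1.36 (SD, n = 2). The log2 odds ratio, from 24 sorted against 114 background insertions, was 2.52 ± 0.32 (SE). No position was found in both sorted replicates, and 5 of the 24 were also listed in a repressor unsorted library.

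In the PTGR screen Trim8 had 8 and 10 sorted insertions, 1.31 and 1.71 per 10000, of which the second lay above all 6 unsorted libraries. The log2 odds ratio was 0.43 (95% interval -0.28 to 1.15) and the adjusted p was 0.641 (one-sided Fisher's exact test, Benjamini-Hochberg). In the activator screen it had 2 and 0 insertions, under the 3 needed for the test, with a log2 odds ratio of -0.84 (-2.86 to 1.18). The summed activator value was 0.623 per 10000 and the background 1.12, a difference within the counting interval.

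**Figure D2:**
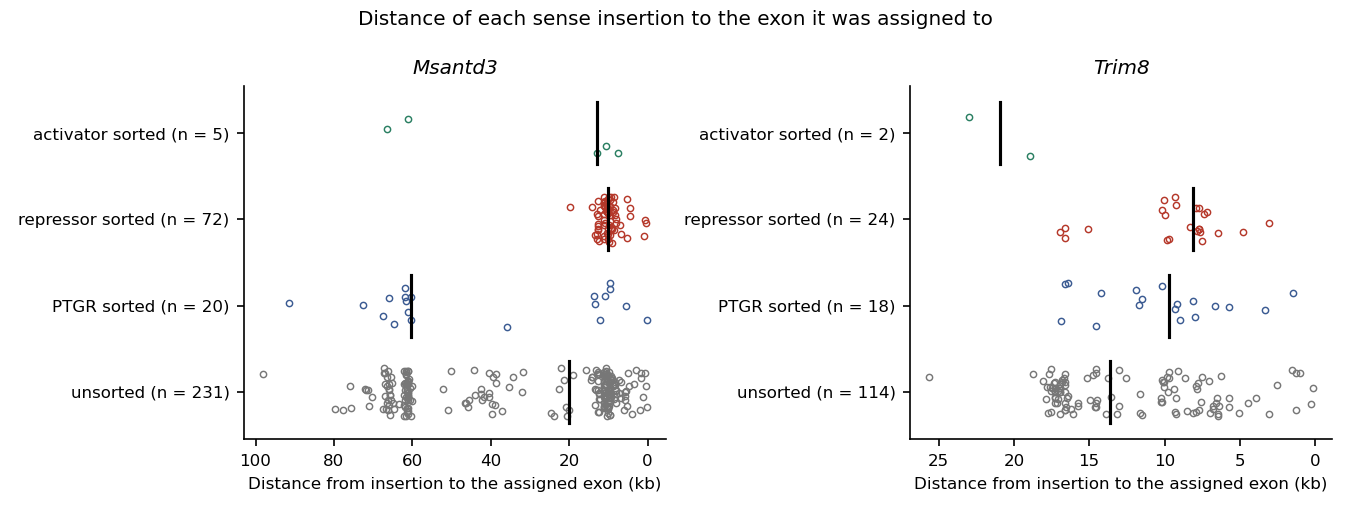
Distance in kb from each sense insertion to its assigned exon (x axis, exon at the right) for Msantd3 and Trim8, by group of libraries with points spread vertically for legibility and a black bar at the median. The repressor sorted insertions of Msantd3 all lie within 19.8 kb, and those of Trim8 have a median of 8.12 kb against 13.7 kb in the unsorted libraries.

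Trim8 insertions were all within 50 kb of the exon in every group of libraries, the farthest at 25.6 kb. Their places were as follows. In the background 65 of 114 (57.0%) lay in the 20 kb before the gene, while in the repressor sorted libraries 4 of 24 (16.7%) did, all 4 in replicate 1. Of the sorted insertions, 4 lay within exon 1 and 16 between exon 1 and exon 2, so that 20 of 24 lay inside the gene ahead of exon 2. In the PTGR sorted libraries 8 of 18 lay before the gene.

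All 24 sorted insertions were assigned to exon 2 (chr19:46512723-46512818). Exon 1 holds the first 570 coding bases, which is 190 codons, and the acceptor of exon 2 is followed by the remaining 1083. Members of the TRIM family carry the RING domain at the N terminus. The deposited lists record positions and not transcripts, so which part of the protein the tag was joined to in these cells was not tested.

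Reversed insertions at Trim8 numbered 2 and 0 in the repressor sorted libraries, so that 24 of 26 (92.3%) were in the sense orientation, against 114 of 189 (60.3%) in the background. In the PTGR sorted libraries the reversed count was 12 and 7, more than the 18 sense insertions in sum. Their values of 2.01 and 1.21 per 10000 both lay above the 6 unsorted libraries, which ran from 0.583 to 1.12. The reversed log2 odds ratio was 1.12 (95% interval 0.40 to 1.85), with an adjusted p of 0.139 (one-sided Fisher's exact test, Benjamini-Hochberg), so it was no call. For Msantd3 the reversed adjusted p was 1.00 in both the activator and the PTGR screen. Among all genes tested with reversed insertions, 5.61% were called in the repressor, 3.14% in the activator screen, and the PTGR screen had 0.5% called.

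Gm10324 (ENSMUSG00000095909, chr13:66119547-66122836, plus strand) had 7 sorted insertions in each repressor replicate. The repressor unsorted libraries had 8 and 5, the activator unsorted libraries 5 and 4, and the PTGR unsorted libraries 1 and 0. Per 10000 the sorted values were 3.14 (95% interval 1.52 to 6.49) and 4.60 (2.23 to 9.50), above the unsorted range of 0 to 0.459. The log2 odds ratio, from 14 against 23 insertions, was 4.05 ± 0.49 (SE). It was higher than that of the other 2 genes at this limit of 200 kb, while at 50 kb Msantd3 had 3.46 and Gm10324 2.49, and with no limit 3.24 and 3.20. The Gm10324 value at 50 kb rests on 1 sorted insertion against 4 in the background, under the 3 needed for a test. In the repressor screen Gm10324 ranked 103 of 192 hits by log2 odds ratio, with Msantd3 at 149 and Trim8 at 164.

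The activator and PTGR sorted libraries had 0 insertions assigned to Gm10324 within 200 kb. This allows up to 0.935 per 10000 for the activator libraries and 0.251 for those of the PTGR screen, above the background of 0.225, so a lower value than background could not be seen at this depth and no test was made.

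Most Gm10324 insertions lay far from the assigned exon. Of its 14 sorted insertions 1 lay within 50 kb of the exon, and 13 lay between 50 and 200 kb. The sorted libraries held a further 7 and 8 beyond 200 kb, where Msantd3 and Trim8 had none. A group of 9 sorted insertions, 5 from replicate 1 and 4 from replicate 2, lay within 1278 bases at chr13:65933528-65934805, 185 to 186 kb from the exon. Most of these 9 lay closer together, from 185529 to 185574 bp from the exon. The positions at 185529 and 185569 bp were listed in both sorted replicates, so the 9 are not all distinct positions. The position at 185533 bp was also listed in repressor unsorted replicate 1. Only 3 of the background insertions lay in or within 2 kb of the 1278-base stretch. The other 4 insertions between 50 and 200 kb lay at 169, 91.9 to 92.5 and 89.1 kb.

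**Figure D3:**
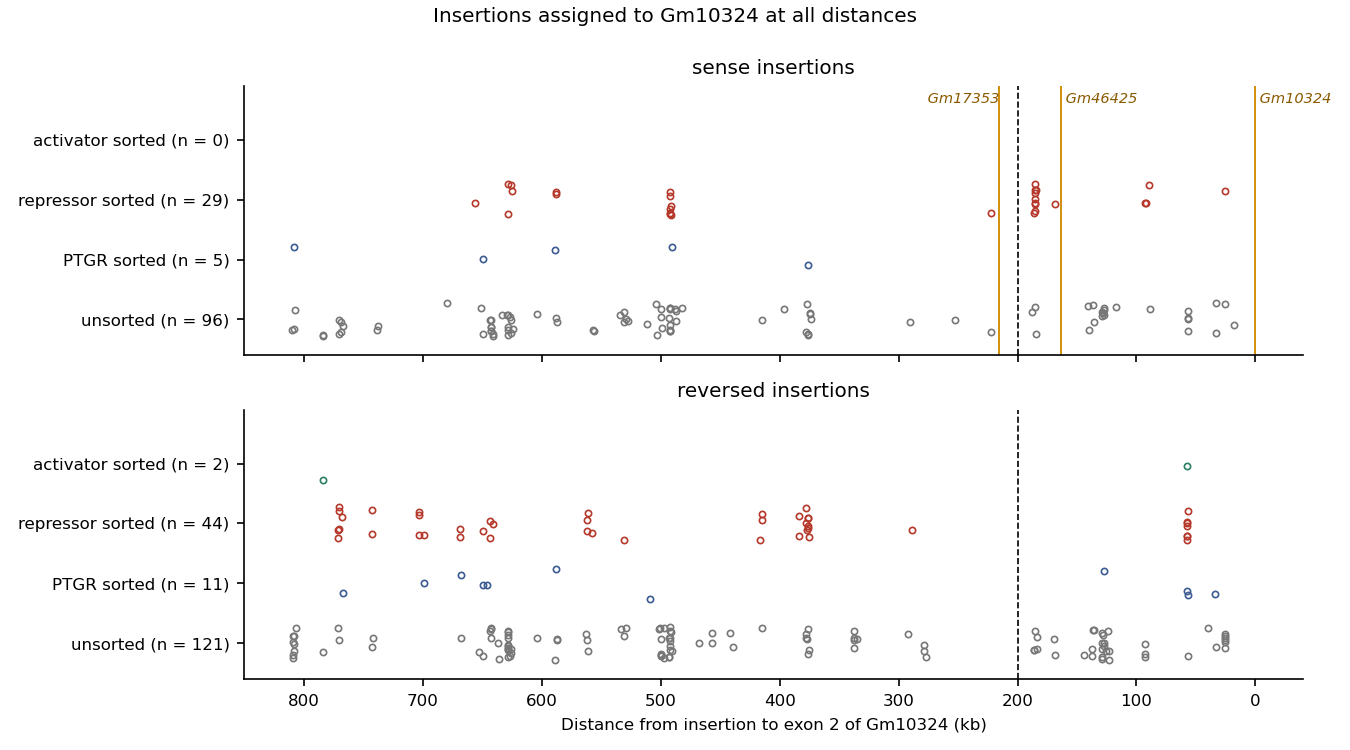
Distance in kb from each insertion to exon 2 of Gm10324 (x axis, exon at the right) for sense insertions above and reversed insertions below, by group of libraries with points spread vertically. Orange lines mark exon 2 of Gm17353, Gm46425 and Gm10324 and the dashed line is the 200 kb limit, and 9 repressor sorted insertions stand together just inside it.

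The authors assigned insertions to protein-coding GENCODE transcripts. RefSeq's annotation of the same assembly holds further protein-coding genes in this stretch, among them Gm17353 and Gm46425 on the plus strand, neither of which is in the deposited tables. When each insertion was assigned to the nearest downstream RefSeq exon other than a first exon, 10 of the 14 sorted insertions (71.4%) faced Gm46425, at a median of 21.9 kb from its exon, and 4 faced Gm10324. By replicate, 6 and 4 faced Gm46425, and 1 and 3 faced Gm10324. In the background the split ran the other way, with 3 of 23 facing Gm46425 and 20 facing Gm10324. Per 10000 this is 2.67 sorted against 0.0294 background insertions for Gm46425, and 1.07 against 0.196 for Gm10324. These values come from the libraries that chose the gene, and 9 of the 10 lay in the 1278-base stretch, so they are a description. All 15 sorted insertions beyond 200 kb faced Gm17353, at a median of 277 kb from its exon. Under the same RefSeq assignment all insertions at Msantd3 and Trim8 kept their gene.

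Sequence around the Gm10324 insertions recurs in the genome. Of the 12 distinct sorted sense positions within 200 kb, 10 had another exact copy in the assembly of the 50 bases on at least one side, and 5 had one on both sides. Over all distances and both orientations this was 58 and 20 of 67 positions. At Msantd3 1 of 71 and at Trim8 0 of 26 positions had a further copy of the 50 bases on either side. The authors removed reads of low mapping quality, and how many reads from near-identical copies were lost or placed elsewhere was not tested, so the counts at Gm10324 are uncertain.

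Reversed insertions were also raised at Gm10324. The study itself flagged this repressor hit for enriched reversed integrations. Its methods advise caution with such hits, as the pattern could mark either true or false positives. Within 200 kb reversed insertions numbered 4 and 3 in the repressor sorted libraries, or 2.20 and 2.34 per 10000. The unsorted libraries ran from 0.186 to 0.512, and the log2 odds ratio was 2.67 ± 0.60 (SE). All 7 lay within 44 bases of each other, at chr13:66062579-66062622. Sense insertions therefore made up 14 of 21 (66.7%), against 23 of 59 (39.0%) in the background. At all distances there were 29 sense and 44 reversed insertions, 6.37 and 9.66 per 10000, against 0.694 and 0.875 in the background. As mapped, the 44 reversed insertions faced 4 other RefSeq genes on the minus strand, 21 of them Gm53057, 10 Gm31714, 8 Gm7762 and 5 Gm19428, none of them in the deposited tables. Over all libraries the median distances to these genes were 289, 77.7, 8.23 and 71.2 kb, in that order. The 7 within 200 kb of Gm10324 all faced Gm53057, from 240 kb or more, beyond the 200 kb limit.

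Some Gm10324 positions recurred between libraries. Of 25 distinct sense positions at all distances, 4 were found in both repressor sorted libraries and 5 in a repressor unsorted library, and none in the unsorted libraries of the other screens. Counting shared positions once gave a log2 odds ratio of 4.00 within 200 kb.

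**Figure D4:**
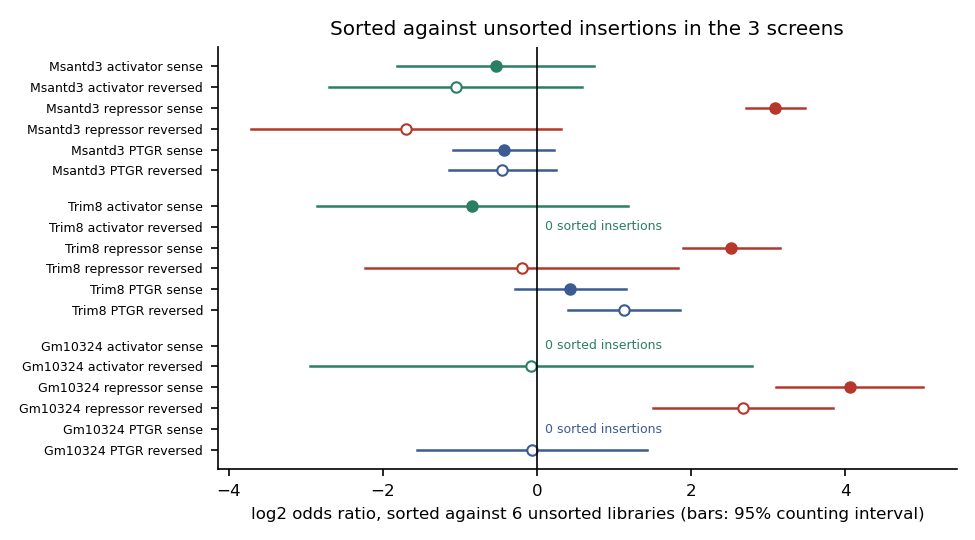
Log2 odds ratio of sorted against the 6 unsorted libraries (x axis) for each gene, screen and orientation, with sense filled, reversed open and bars for the 95% counting interval. The sense values in the repressor screen run from 2.52 for Trim8 to 4.05 for Gm10324, and the activator and PTGR intervals of sense insertions at Msantd3 and Trim8 include 0, while Gm10324 has no sense value there.

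None of the nearest genes of the deposited tables was called in any screen. Those genes lay 23.3 to 497 kb from Msantd3, 12.9 to 126 kb from Trim8 and 295 to 914 kb from Gm10324. The closer RefSeq genes Gm46425 and Gm17353 are not in those tables and were not among them. The 3 nearest genes of the deposited tables on each side gave 18 neighbours, of which 7 could be tested in the repressor screen and none was a call (one-sided Fisher's exact test, Benjamini-Hochberg). At an unadjusted p below 0.05 there was 1, Nlrp4f, whose 3 and 7 sorted insertions gave a log2 odds ratio of 1.45, and edgeR called 0 of the 13 it tested. Beside Msantd3, Tex10 had 5 and 3 sorted insertions with a log2 odds ratio of -0.97, and Tmeff1 had 1 and 0 with -3.34. In the PTGR screen 14 neighbours were tested and 0 called, with Mfsd13a and Actr1a at an unadjusted p below 0.05. Actr1a, a neighbour of Trim8 on the minus strand, had 22 and 16 PTGR sorted insertions (log2 odds ratio 0.92). Arl3, a nearer neighbour on that strand, had 2 and 2 (-0.33). In the activator screen 3 were tested and 0 called, 0 of them at an unadjusted p below 0.05 and 0 by edgeR. Over all tested genes 8.18% were called in the repressor, 0.666% in the PTGR and 4.64% in the activator screen. With so few neighbours tested, 0 calls does not set them apart from other genes.

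Few relatives of MSANTD3 could be compared. Msantd1, Msantd2 and Msantd4 were in the tables and none had the 3 insertions needed in the repressor screen, where Msantd2 had 2 and 0 sorted against 98 background insertions. Of 66 other Trim genes 4 were tested in the repressor screen and 2 were called, Trim28, the KRAB corepressor, at 331 and 302 sorted insertions (log2 odds ratio 4.70), and Trim24, a bromodomain member, at 94 and 68 (3.37). The other 2, Trim23 and Trim41, each had 3 sorted insertions in sum, with 0.15 and 0.03. Genes with fewer were not tested, among them Trim71 with 1 sorted insertion against 336 in the background (-3.62). Of 27 Trim genes tested in the PTGR screen 5 were called, Trim13, Trim25, Trim26, Trim28 and Trim71, with log2 odds ratios from 1.97 to 3.91. At an unadjusted p below 0.05 there were 8 (one-sided Fisher's exact test), among them the uncalled Trim32, Trim36 and Trim41. Trim32 and Trim36 had 4 and 3 sorted insertions in sum. By edgeR 5 of the 37 it tested were called. In the activator screen 0 of 10 were called, 1 (Trim16) at an unadjusted p below 0.05 and 0 by edgeR. Over all tested genes 8.18% were called in the repressor, 0.666% in the PTGR and 4.64% in the activator screen.

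Among 9 genes for partners or targets linked to TRIM8, 2 were tested in the repressor screen and 1 was called. This was Trp63, a p53 family transcription factor, whose 15 and 7 sorted insertions gave 4.02 on the log2 scale. In the activator screen 2 were tested and 1 called, Trp53, with 17 and 22 and 2.26. In the PTGR screen 6 were tested and 0 called by Fisher's exact test, with 1 (Map3k7) at an unadjusted p below 0.05 and 0 called by edgeR. Socs1 had 0 insertions in all sorted and unsorted libraries. Of 9 genes for the corepressor machinery of KRAB proteins, 8 were tested and 8 called in the repressor screen, with log2 odds ratios from 4.34 for Atf7ip to 5.94 for Cbx3. Of 6 tested in the PTGR screen 1 was called, Trim28. Pphln1, with 5 and 5 PTGR sorted insertions, was also at an unadjusted p below 0.05. Its log2 odds ratio was 2.25 and its adjusted p 0.030 (one-sided Fisher's exact test, Benjamini-Hochberg), so it was no call. In the activator screen 0 of 3 were called by Fisher's exact test, with 0 at an unadjusted p below 0.05 and 0 by edgeR. These lists were written with earlier results of the data known, so their counts are no independent evidence.

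The insertion profile over the 12 libraries was compared with those of 7998 genes that had at least 30 insertions, as log2 of insertions per 100000 plus 1. Most like Gm10324 were Zfp953, Zfp809 and Zfp248, with Pearson correlations of 0.989, 0.973 and 0.968. Most like Msantd3 were Zfp934, Arid4b and Zfp451 (0.950, 0.949 and 0.947), and most like Trim8 were Phf21a, Grhl2 and Morc3 (0.972 each). The 12 points include the 2 repressor sorted libraries whose values chose the members and share depth, so that close profiles are repressor hits follows from the choice, and no p is given.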

How the data were processed

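The authors trimmed inverse-PCR reads with Trim Galore 0.6.0, aligned first mates to mm10 with Bowtie2, removed duplicates and low-quality alignments with SAMtools 1.9, and paired insertions with the closest non-first exon lying downstream in protein-coding GENCODE vM25 transcripts. The deposited lists give positions and distances in bp and no read number. The authors also deposited insertion counts per gene, summed over libraries, which were used to check the recount: within 200 kb both were identical for the 3 genes, except in the PTGR screen, where positions listed repeatedly were counted once here (20 and 24 for Msantd3, 18 and 20 for Trim8). Columns holding the authors' own odds ratios, adjusted p-values and hits were not used.

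Positions were counted once per library at a distance of at most 200 kb. For each screen the 2 sorted libraries were summed and compared, gene by gene, with all 6 unsorted libraries (SciPy, Fisher's exact test, one-sided). Benjamini-Hochberg adjustment ran over the genes that had 3 or more sorted insertions. Genes were called at a log2 odds ratio of 1 or more and an adjusted p under 0.001. Standard errors and intervals are from counting. As alternatives, edgeR 4.0.16 (quasi-likelihood, robust, TMM) and DESeq2 1.42.0 were fitted to the 4 libraries of a screen, for genes with at least 5 insertions. All tests were tried on simulated data, and edgeR's robust setting was adopted because without it no changed gene was recovered in 1 simulated screen. No permutation test was run. Coordinates came from GENCODE vM21 and from RefSeq for GRCm38.p6, the assembly of mm10.

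The members, gene lists and tests were chosen with earlier results of these data known. The genes named are the members, their neighbours, list members called in any screen or singled out by their values, and the 3 genes most like each member. Gm46425, Gm17353 and the minus-strand genes were named after their values were seen.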

Additional observations from a re-analysis of the deposited data

Results flagged for a closer look

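Sense insertions at Gm10324 numbered 14 in the repressor sorted libraries and 0 in the activator and 0 in the PTGR sorted libraries. This difference between screens was not tested and the gene was chosen for its repressor value. A count of 0 allows more than the background level at these depths, so it shows no direction.

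Reversed insertions at Trim8 lay above the unsorted mean in both PTGR sorted libraries, with 19 in sum, and numbered 0 in the activator sorted libraries. The difference was not tested, and a count of 0 at the activator depth allows up to 1.01 per 10000, above the background of 0.741, so it shows no direction.

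Insertions assigned to Gm10324 from beyond 200 kb enter no count of the screens. In the repressor sorted libraries they came to 3.293 per 10000 in the sense and 8.121 per 10000 in the reversed orientation, of all insertions at any distance. The highest unsorted library had 0.759 and 0.829.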

How the results depend on the processing

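In the activator and PTGR screens no alternative made Msantd3 or Trim8 a call, with adjusted p-values from 0.139 to 1.00. Signs changed for Msantd3 and, in the activator screen, for Trim8. The Trim8 activator value ran from -0.91 to 0.04 with single libraries left out and was positive without sorted replicate 2. That 0.04 rests on 2 sorted insertions. Without sorted replicate 1 the sorted count was 0 and gave no value, so the range is incomplete at its low end. The Msantd3 activator log2 odds ratio was 0.10 with DESeq2 and ran from -1.73 to 0.025 (without sorted replicate 2) when single libraries were left out, and the Msantd3 PTGR value ran from -1.46 to 0.18, positive without sorted replicate 1. Over the libraries left out singly, the repressor values ran from 2.03 to 3.53 for Msantd3, lowest without sorted replicate 1, from 2.24 to 2.69 for Trim8 and from 3.74 to 4.40 for Gm10324, and the PTGR value of Trim8 from 0.23 to 0.61. Reversed assignment turned the repressor value to -1.70 for Msantd3 and -0.20 for Trim8, and gave 2.67 for Gm10324. Gm10324 also moved by more than its replicate spread, to 2.49 with a maximum of 50 kb, 3.20 with none and 3.34 against the unsorted libraries of its own screen. The 2.49 rests on 1 sorted insertion.

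The replicate block in edgeR gave 2.79, 2.46 and 3.37 for Msantd3, Trim8 and Gm10324 in the repressor screen, against 2.93, 2.49 and 3.38 without it. Deviations of same-numbered libraries correlated at 0.05, 0.01 and 0.26 across genes in the activator, repressor and PTGR screens. By shared positions, each activator and PTGR sorted library overlapped more with its same-numbered unsorted library than with the other. As percent of sorted positions, the shares were 5.2% against 2.3% and 19.2% against 1.39% (activator), then 19.5% against 0.397% and 6.98% against 1.93% (PTGR). The repressor shares were 8.50% against 10.0% for sorted replicate 1 and 8.72% against 5.47% for replicate 2. Whether the repressor replicates were mixed was not tested. Over all genes, the PTGR screen had 62 calls, and 40 against its own unsorted libraries, 31 and 34 with edgeR without and with the replicate block and 15 with DESeq2. Reversed assignment gave 85 activator and 125 repressor calls against 132 and 192. Gm10324 in the activator and PTGR screens had no value because its sorted counts were 0. Depth limits the members most in the activator sorted libraries, where 3 insertions equal 0.935 per 10000.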
